A study of Homo sapiens with 2 samples.

Results

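The Hedgehog pathway core genes PTCH1, SMO, SUFU, GLI1, GLI2, GLI3 and HHIP were examined for ZFX peaks around their start sites, taken as 1 start position per gene on the hg19 build with 5 kb on either side. Of these 7 genes, 4 had a peak in that window (PTCH1, SMO, SUFU and GLI3) and 3 had none (GLI1, GLI2 and HHIP). The windows held 7 of the 14471 peaks of the deposited list. ZFX, an X-linked zinc finger protein that binds DNA and regulates transcription, was mapped by ChIP-seq, the sequencing of immunoprecipitated chromatin. The cells were DAOY, a human line established from a medulloblastoma, a tumour of the cerebellum, and the labels name no treatment. In 1 sample, sonicated chromatin was precipitated with a rabbit polyclonal antibody against ZFX, and in the other, sonicated chromatin without precipitation served as input, with 1 library each. Only the peaks of the ZFX library were used, and the input library was not used here. Since that library has no replicate, all values below are descriptions without a test. The depth of sequencing is unknown, and a gene without a peak was not shown to lack ZFX. The list holds no expression values, so the identity of the line was not checked against marker genes.

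Hedgehog signalling controls the growth of granule neuron precursors in the developing cerebellum, and its activation in these cells gives rise to a subgroup of medulloblastoma. Without ligand, the receptor PTCH1 holds the membrane protein SMO inactive, and SUFU binds the GLI transcription factors and restrains them. Ligand binding to PTCH1 releases SMO, after which GLI2 and GLI3 act as activators rather than repressors and GLI1 is transcribed. PTCH1, HHIP and GLI1 are themselves known targets of the GLI factors, and PTCH1 and HHIP act back on the pathway as brakes. The data bear on where ZFX lay relative to the starts of these genes in a Hedgehog-related tumour type.

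Promoter sequences are shown for the 3 genes that have a single start in the RefSeq promoter table (GRCh38.p14), because they differ in the readout. SMO had a peak over its start, SUFU had peaks on both sides of it, and HHIP had no peak in its window. Each line gives the 250 bases before the start, read 5′ to 3′ on the plus strand, at chr7:129188383-129188632 for SMO, chr10:102503722-102503971 for SUFU and chr4:144645906-144646155 for HHIP. Capitals mark GGCCT or its reverse complement AGGCC, the last and first letters of the known ZFX motif core AGGCCT.
SMO: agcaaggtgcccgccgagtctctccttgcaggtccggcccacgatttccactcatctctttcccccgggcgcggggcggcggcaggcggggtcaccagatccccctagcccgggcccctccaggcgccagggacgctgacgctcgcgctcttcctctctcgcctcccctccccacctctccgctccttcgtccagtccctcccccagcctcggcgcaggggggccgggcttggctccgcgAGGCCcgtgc
SUFU: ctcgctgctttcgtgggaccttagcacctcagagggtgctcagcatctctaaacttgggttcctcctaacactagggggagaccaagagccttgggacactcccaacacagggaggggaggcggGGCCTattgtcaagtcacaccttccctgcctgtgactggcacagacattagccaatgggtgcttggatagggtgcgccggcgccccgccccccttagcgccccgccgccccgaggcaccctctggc
HHIP: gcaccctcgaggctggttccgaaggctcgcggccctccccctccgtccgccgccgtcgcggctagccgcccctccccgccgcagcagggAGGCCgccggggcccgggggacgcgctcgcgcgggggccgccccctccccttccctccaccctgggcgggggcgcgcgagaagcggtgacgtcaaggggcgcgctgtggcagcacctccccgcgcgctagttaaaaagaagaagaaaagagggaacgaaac
The letters in capitals occurred 1 time in each of the 3 sequences, starting 10 bases before the start in SMO, 126 in SUFU and 161 in HHIP. They were thus found with and without a peak in the window. Of all promoters in the promoter table, 50.4% held them in the 250 bases before the start. The starts of the 3 sequences are GRCh38.p14 positions, and they were not matched base by base to the hg19 starts used for the peaks.

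PTCH1, the receptor for Hedgehog ligands (start at position 98270831 of chromosome 9, minus strand, hg19 as for all peaks), had 3 peaks in its window, the most among the 7 genes. The strongest was a peak of 1091 bp at chr9:98268175-98269265 with a score of 351.99, which lay 1566 to 2656 bp downstream of the start. Scores are the authors' own, have no stated unit and run from 50 in this list with a median of 108.9. MACS is known to write a transformed p-value in such a column, but nothing read here says that this was done, and such a value would not measure binding alone. Stronger and weaker therefore mean a higher and a lower score in this list only. The downstream peak ranked 2079 among the 14471 peaks, with 85.6% of the list below it, and 124 among the 699 peaks of chromosome 9. A peak of 466 bp at chr9:98271824-98272289 scored 81.49 and lay 993 to 1458 bp upstream. The third peak, 512 bp at chr9:98273422-98273933, scored 87.43 and lay 2591 to 3102 bp upstream. Both upstream peaks were thus below the median of the list, and the downstream peak was above it. The start itself was not covered, and gaps of 2558 and 1132 bp separated the 3 peaks. Between the outermost peaks of chromosome 9, 4.10% of positions had any peak within 5 kb. Over the 6 chromosomes that carry the 7 genes, 0.752% of positions had 2 or more peaks within 5 kb, as at SUFU, and 0.121% had 3 or more, as at PTCH1.

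HHIP, a membrane protein that binds Hedgehog ligands and keeps them from PTCH1 (start at 145567148 of chromosome 4, plus strand), had no peak within 5 kb. Its start lay in a stretch of 1.58 Mb without a peak. The nearest peak was 452 kb downstream, at chr4:146018921-146019361, with a score of 180.22. Upstream, the nearest peak was 1132 kb away, at chr4:144434701-144435169, with a score of 128.35. On chromosome 4, which carried 370 peaks, such distances were common, and 53.6% of positions had a peak as near as the HHIP start or nearer.

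SMO, the membrane protein that passes the signal on when PTCH1 is bound (start at 128828713 of chromosome 7, plus strand), was the only gene of the 7 whose start was covered by a peak. This peak, chr7:128827996-128829721, was 1726 bp wide and reached from 717 bp upstream to 1008 bp downstream. Its score of 453.33 was the highest of the 7 peaks and ranked 1402 in the list, above 90.3% of all peaks, and 130 among the 945 peaks of chromosome 7. Its width exceeded that of 99.2% of peaks. Among the 775 peaks no more than 1.5 times narrower or wider, the median score was 580.18, and 33.4% scored lower than the SMO peak. Its score was thus high in the list and below the median for its width. It was also the only peak of the 7 that touched the stretch from 250 bases before to 50 after the hg19 start.

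SUFU, the cytoplasmic inhibitor of the GLI factors (start at 104263719 of chromosome 10, plus strand), had a peak on each side of its start. The stronger, 538 bp at chr10:104261972-104262509, scored 188.94 and lay 1210 to 1747 bp upstream. With 70.0% of the list below it, it ranked 122 among the 491 peaks of chromosome 10. The weaker, 331 bp at chr10:104263900-104264230, scored 71.02 and lay 181 to 511 bp downstream. This was the narrowest of the 7 peaks, and 30.3% of the list scored lower. On chromosome 10, 3.13% of positions had a peak within 5 kb. The start of ACTR1A, which encodes a subunit of the dynactin complex, lies within 5 kb of the SUFU start on the opposite strand in RefSeq (GRCh38.p14). The list alone does not tell to which of these divergent genes the peaks belong, and their distances to the ACTR1A start were not measured. In gene order ACTR1A lies upstream of SUFU, the side on which the stronger peak lies. For PTCH1 and SMO, no other gene in the promoter table had a start within 5 kb.

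The GLI transcription factors, the DNA-binding end of the pathway, differed from each other. Their starts lie at 57853918 of chromosome 12, plus strand, for GLI1, at 121554867 of chromosome 2, plus strand, for GLI2 and at 42276618 of chromosome 7, minus strand, for GLI3. Whether a peak lies in an exon or intron was not determined, since no hg19 annotation was used here. GLI3, which acts mainly as a repressor, had a single peak of 499 bp at chr7:42277115-42277613, 497 to 995 bp upstream of the start. Its score was 71.83, above 30.8% of the list, and 666th among the 945 peaks of chromosome 7. GLI1, an activator and a standard readout of pathway activity, had none in its window. Peaks flanked it at similar distances, 28.8 kb upstream at chr12:57823654-57825099 and 27.6 kb downstream at chr12:57881533-57881979. The upstream peak scored 1415.2 and ranked 147 in the list and 13 among the 760 peaks of chromosome 12, whereas the downstream peak scored 79.51. On chromosome 12, 4.73% of positions had a peak within 5 kb. GLI2, the main activator downstream of SMO, also had none, on a chromosome where 3.61% of positions had a peak within 5 kb. Its neighbours were peaks of low score, 61.47 at 60.8 kb upstream (chr2:121493769-121494061) and 65.74 at 70.2 kb downstream (chr2:121625112-121625379). The nearest peak above the median score was 277 kb from the GLI2 start and 28.8 kb from the GLI1 start.

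**Figure D1:**
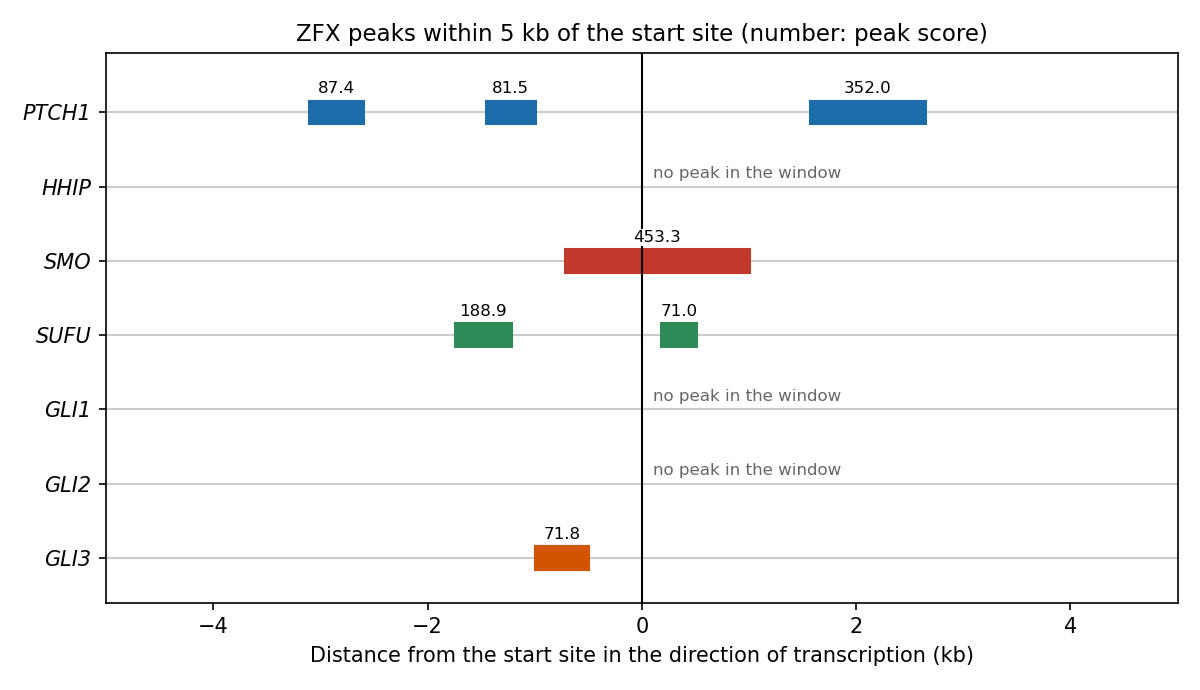
Peaks within 5 kb of the hg19 start of each gene, drawn to scale along the direction of transcription in kb, with 1 row per gene and each peak's score above it. SMO alone has a peak over the start, PTCH1 has 3 and SUFU 2 peaks beside it, GLI3 has 1 upstream, and HHIP, GLI1 and GLI2 have none.

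The 4 genes with a peak are 57.1% of the 7. Over the positions between the outermost peaks of the same 6 chromosomes, 3.62% had a peak within 5 kb, from 1.70% on chromosome 4, which carries HHIP, to 5.01% on chromosome 7, which carries SMO and GLI3. This background is a share of positions and not of gene starts. Starts of other genes on hg19 were not used here, so the 4 of 7 cannot be read as more or fewer than for genes at large. The same 4 genes had a peak with windows of 1, 2 and 10 kb, where the share of positions was 0.975%, 1.66% and 6.65%. The nearest peak outside any of the windows lay 19.1 kb upstream of SMO, with a score of 81.3. Within 50 kb, GLI1 joined the 4 genes and GLI2 and HHIP did not, and 24.1% of positions had a peak as near. When peaks had to score above the median of the list, GLI3 dropped out and PTCH1, SMO and SUFU remained, beside 2.10% of positions. SUFU remained through its upstream peak, which lies on the side of the divergent gene ACTR1A. The count was also 3 among peaks scoring 100 or more, beside 2.23% of positions.

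By role, the brakes on the pathway were not uniform. PTCH1 and SUFU had 3 and 2 peaks in their windows, and HHIP had none. Those in the SUFU window were not assigned to SUFU rather than to ACTR1A. The known GLI targets also differed, since PTCH1 had peaks in its window and GLI1 and HHIP had none. Among the 3 GLI genes, only GLI3 had a peak within 5 kb of the start used. This peak was weaker than the strongest peak of PTCH1, SMO or SUFU. RefSeq lists another start for GLI2, and peaks around that start were not examined. The absence of a peak at GLI2 may therefore depend on the start chosen.

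**Figure D2:**
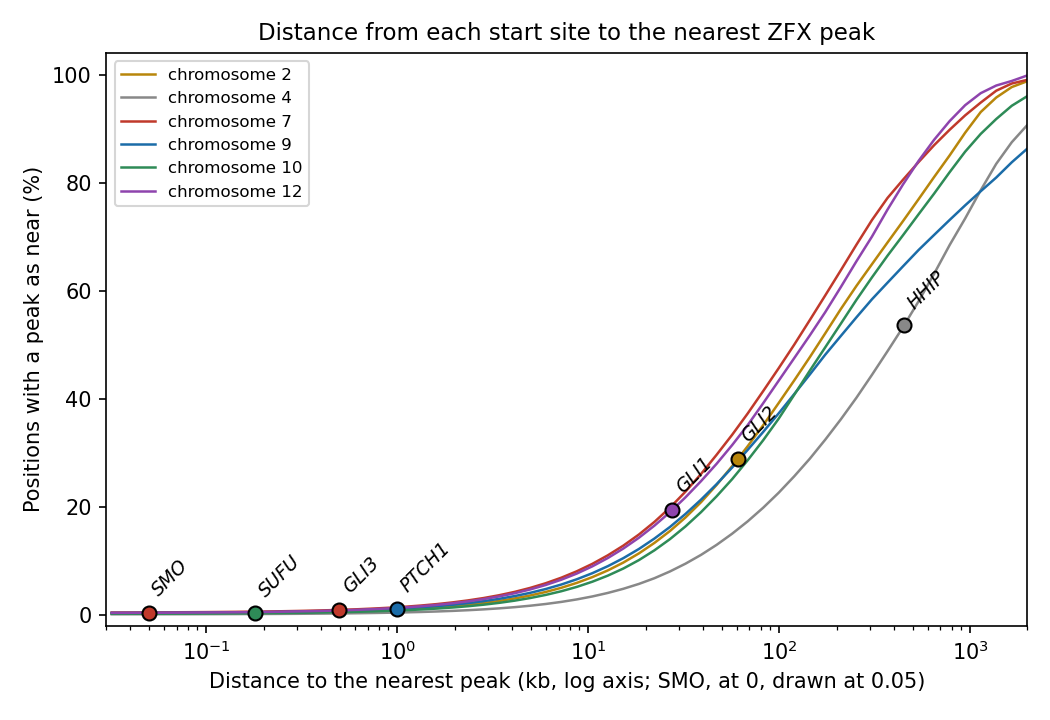
Distance from each start site to the nearest peak in kb (log axis) against the percentage of positions of its chromosome with a peak as near; lines give the 6 chromosomes and points the 7 genes. SMO, SUFU, GLI3 and PTCH1 lie within 1 kb of a peak, GLI1 at 27.6 kb, GLI2 at 60.8 kb and HHIP at 452 kb.

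In order of distance, the nearest peak edge was 0 bp from the start for SMO, 181 bp for SUFU, 497 bp for GLI3 and 993 bp for PTCH1. Among the positions of their chromosomes, 0.405% had a peak as near for SMO, 0.302% for SUFU, 0.921% for GLI3 and 1.13% for PTCH1. Of the genes without a peak in the window, GLI1 lay nearest to a peak and HHIP farthest. The share was 19.4% for GLI1 at 27.6 kb, 28.9% for GLI2 at 60.8 kb and 53.6% for HHIP at 452 kb. Peak edges depend on the caller, and starts differ between transcripts, so short distances are approximate.

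Of the 7 peaks, 3 scored above the median of the list and 4 below it, near the even split that a median gives. The 3 above it were the peak over the SMO start, the downstream peak of PTCH1 and the upstream peak of SUFU. The other 4 scored between 71.02 and 87.43. Widths ran from 331 to 1726 bp, with 481 bp as the median of the list. Compared with peaks of like width, 50.1% scored below the strongest PTCH1 peak and 73.9% below the strongest SUFU peak. The value was 21.7% for the GLI3 peak. Relative to width, then, the SUFU peak stood highest and the GLI3 peak lowest among the strongest peaks of the 4 genes, whereas by score alone SMO stood highest. This SUFU peak lies upstream, on the side of ACTR1A, and was not assigned to either gene.

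**Figure D3:**
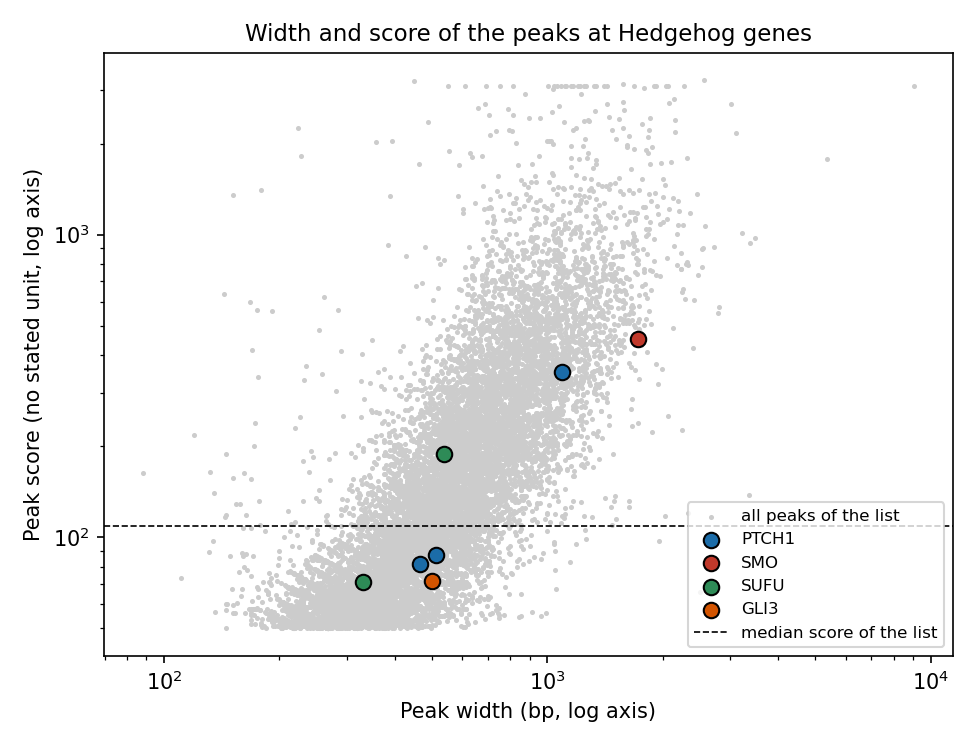
Width in bp against score for all 14471 peaks (grey) and the 7 peaks within 5 kb of a Hedgehog gene (coloured by gene), both axes logarithmic, with the median score as a dashed line. The strongest peaks of SMO, PTCH1 and SUFU lie above the line and the other 4 peaks below it.

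The surroundings of the genes did not follow the presence of a peak at the start. In 1 Mb centred on the start, GLI1 had 26 peaks, the most of the 7 genes, against 5.69 per Mb over chromosome 12, yet none in its window. SUFU had 23 peaks against 3.64 per Mb over chromosome 10, and SMO had 19 against 5.96 per Mb over chromosome 7. PTCH1 had 8 against 4.98 and GLI2 had 6 against 4.26. HHIP had 2 peaks, close to the 1.94 per Mb of chromosome 4. GLI3 had 1, its own upstream peak, against 5.96 per Mb. It was the only gene of the 7 with a lower density than its chromosome at this scale, and in 200 kb HHIP, with 0 peaks, was another. How often regions at large are denser than their chromosome was not computed.

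The GLI3 peak stood alone. Its nearest neighbour was 673 kb away, and 1.57% of all peaks were at least as far from another. Upstream of GLI3 the next peak lay 674 kb from the start, at chr7:42950962-42951925, with a score of 145.54, and downstream 789 kb, at chr7:41486961-41487380, with a score of 52.51. In contrast, the peaks of PTCH1 and SUFU had a neighbour within 1.13 to 2.56 kb, and 63.9% to 67.4% of all peaks were at least as far from another. The SMO peak was 18.4 kb from its nearest neighbour.

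**Figure D4:**
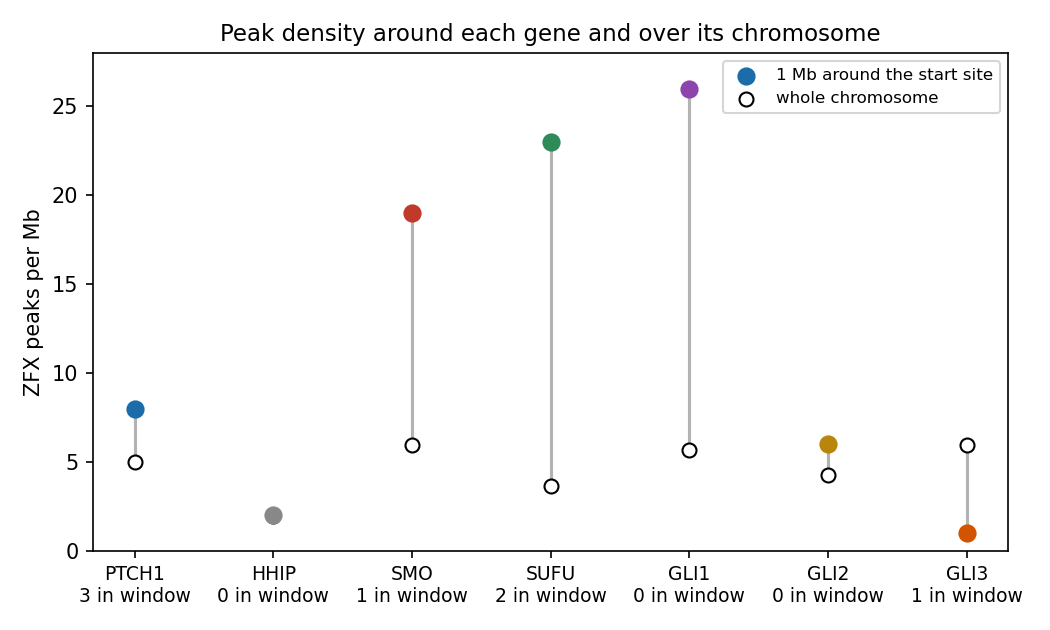
Peaks per Mb in 1 Mb centred on each start site (filled points) and over the whole chromosome between its outermost peaks (open points), with the number of peaks within 5 kb under each gene. GLI1 has the highest local density, 26 per Mb, without a peak in its window, and GLI3 has 1 peak in its window and no other in the 1 Mb.

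In the regions of 1 Mb around PTCH1, SMO and SUFU, which held 8, 19 and 23 peaks, the strongest peak was not at the gene. GLI1, GLI2 and HHIP had no peak in the window, so their strongest peak could only lie elsewhere. For GLI1 it was the peak 28.8 kb upstream, and this was the closest such peak among the genes without a peak in the window. For SMO it scored 3100 and lay 422 kb downstream (chr7:129251078-129252416). For SUFU it scored 634.7 at 447 kb upstream, and for PTCH1 578.07 at 366 kb upstream. For GLI2 and HHIP it was 218.31 at 277 kb downstream and 180.22 at 452 kb downstream. At GLI3 it was the peak by the start, the only peak in the region. The protein-coding genes next to GLI1 in the gene table are INHBE and ARHGAP9, those next to GLI3 are C7orf25 and INHBA, and those next to GLI2 are INHBB and TFCP2L1. No peak outside the windows was assigned to a gene.

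**Figure D5:**
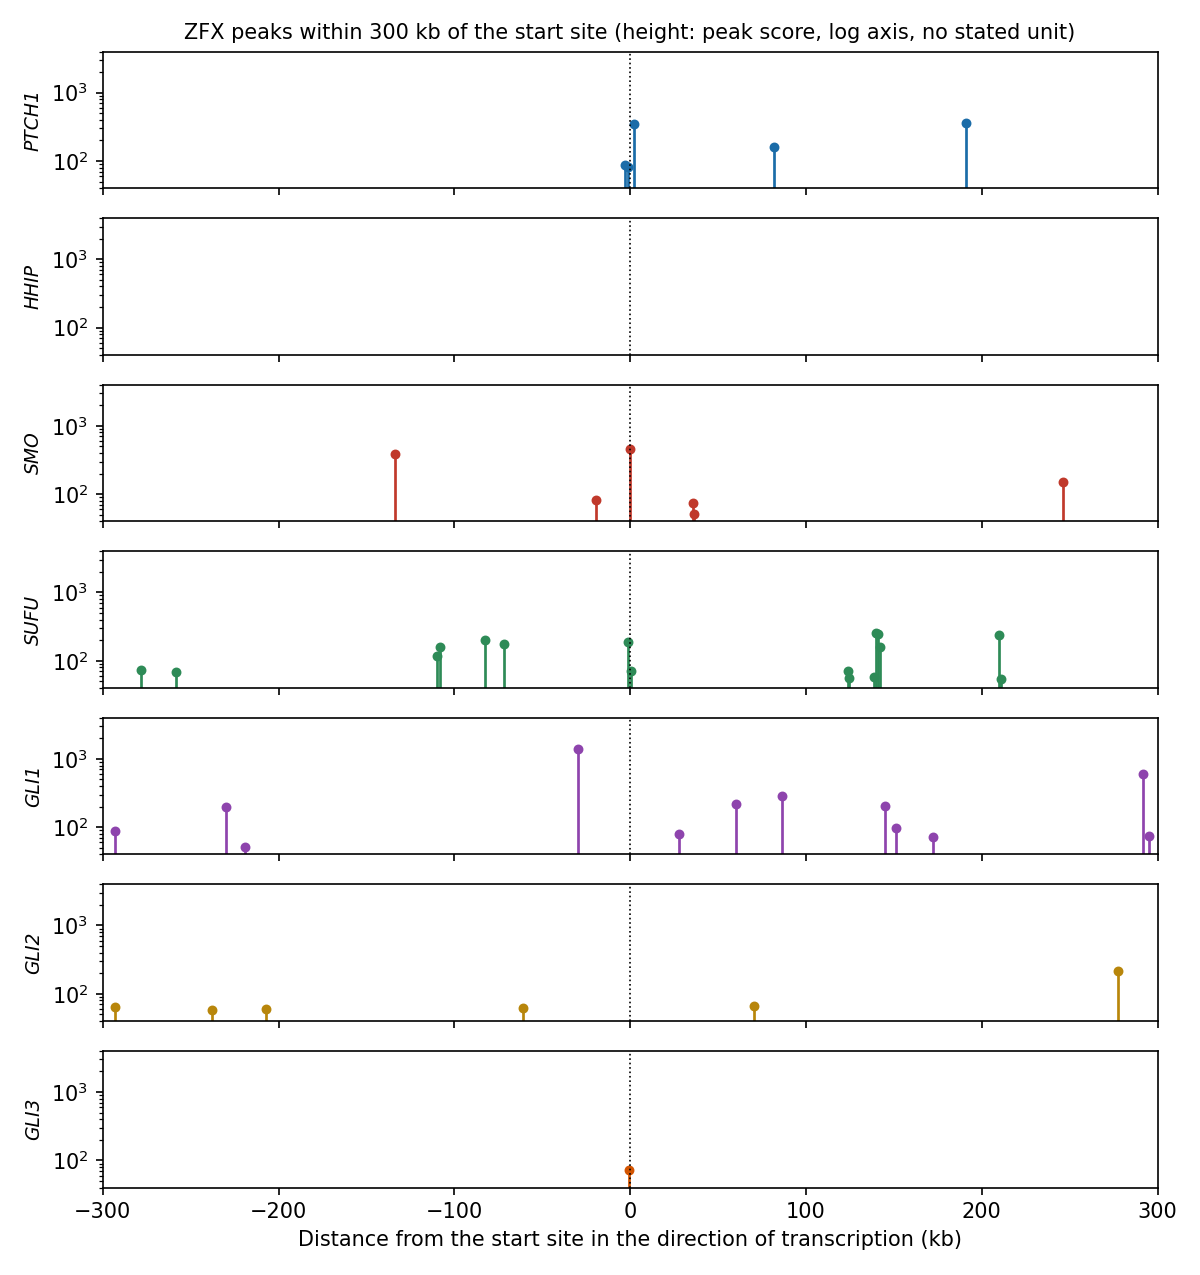
Peaks within 300 kb of each start site, with the distance in kb along the direction of transcription and the score on a log axis as height. GLI1 is flanked by a peak of score 1415.2 upstream and lower ones downstream, GLI3 has no peak other than that by its start, and HHIP has none.

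RefSeq lists more than 1 start for some of these genes, whereas the windows used 1. On GRCh38.p14 the promoter table holds 5 starts for PTCH1 spread over 9.77 kb and 2 for GLI2 that are 56.4 kb apart, and 1 each for SMO, SUFU and HHIP. Which of the 2 GLI2 starts was used here was not determined, since positions were not compared between builds. If it is the downstream one and the spacing is the same on hg19, the peak 60.8 kb upstream falls within 5 kb of the other start. The absence of a peak at GLI2 therefore holds for the start used only. GLI1 and GLI3 had no entry matched in the table, so 5 of the 7 genes, with 10 promoters of 300 bases (250 before to 50 after the start), could be read.

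The ZFX core AGGCCT, which reads the same on both strands, was in none of these 10 promoters. It was in 10.9% of the 35116 promoters of the table. The shorter GGCCT or its reverse complement AGGCC was in 5 of the 10, belonging to PTCH1, SMO, SUFU and HHIP, beside 56.2% of all promoters. Of the matched genes, GLI2 alone lacked these letters. Which of these promoters a peak covers was not determined, since the table and the peaks are on different builds. A match to letters is a description and not a binding site. The known GLI motif GACCACCCA, searched on both strands, was in 1 of the 10 promoters, a PTCH1 promoter, and in 0.236% of all promoters. It is shown because PTCH1 is a GLI target, with the motif in capitals, as TGGGTGGTC on the strand of the gene, starting 172 bases before that start, at chr9:95509420-95509448 on the minus strand (GRCh38.p14).
PTCH1: gttgcctaccTGGGTGGTCtctctacttt

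Base composition did not separate the genes by peak. GC content was 72.0% for the SMO promoter, 65.7% for SUFU and 72.7% for HHIP, which has no peak in its window, with a median of 58.7% over all promoters. The 2 GLI2 promoters had 46.3% and 68.3%, and the 5 PTCH1 promoters 53.3% to 68.0%. HHIP had 36 CG dinucleotides, SMO 29 and SUFU 20, against a median of 14. The GLI2 promoters had 7 and 31, and those of PTCH1 from 13 to 27.

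Other genes of the pathway have no hg19 start among the positions used, so their peaks were not analysed here, and their promoters were read for letters only. The list held 19 genes, among them the ligands SHH, IHH and DHH, the co-receptors CDON, BOC and GAS1 and the cilium protein KIF7, and 18 were matched. Of these 18 genes, 12 held GGCCT or its reverse complement in a promoter, beside 60.2% of all genes in the table. AGGCCT was found in 4, HHAT, which attaches palmitate to Hedgehog ligands, the kinases STK36 and CSNK1A1, and the cilium protein EVC2, beside 13.0% of all genes. GACCACCCA was found in 0 of the 18, beside 0.297% of all genes. The 3 ligand genes held none of these letters.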

How the data were processed

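The peak list of the ZFX library was read as deposited, without a header. It gives chromosome, start, end, name and a score per peak, which the authors deposited without a unit. Peak names carry the name MACS, per the file itself. For the caller's version, threshold and control the labels and the file give nothing. Bowtie2 2.0.0 and the build hg19 appear in the submitters' processing notes with no role stated. Samples were grouped by the antibody in the labels. Starts were taken as counted from 0 and are printed counted from 1.

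Peaks sharing at least 1 base with the window of 5 kb on either side of the start were counted, and named genes were the 7 members. The members and lists were chosen with earlier results of these data known. Background shares were computed exactly over all positions between the outermost peaks of a chromosome, with code tested on simulated data. Densities used peak midpoints. Promoter sequences and gene order came from RefSeq (GRCh38.p14). Of the other pathway genes, 1 is not reported here. Computation used pandas 2.3.3 and numpy 2.4.6 in Python 3.11.15, and figures were drawn with matplotlib 3.10.9. Alternatives were other windows, score minimums, midpoints, joined peaks, rankings, region sizes and motif letters.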

Additional observations from a re-analysis of the deposited data

How the results depend on the processing

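The number of genes with a peak was 4 with windows of 1, 2 and 10 kb, by midpoint and with starts counted from 1. It was 5 at 50 kb, and 3 among peaks above the median score or scoring 100 or more. The windows held 7 peaks also at 10 kb. Joining peaks at most 1 kb apart left 7 as well, but it could not change the count, since the smallest gap was 1132 bp. The median distance over the 7 genes, 993 bp, became 28819 bp with peaks above the median score. The GLI3 distance went from 497 to 674344 bp and that of GLI2 from 60806 to 277311 bp. Those of PTCH1 and SUFU were then 1566 and 1210 bp, and SMO stayed at 0. The median over 4 genes of the percentage of the list scoring below the strongest peak, 77.8, was 78.7 on the same chromosome and 41.8 among peaks of like width. Wider peaks score higher in this list. Of 5 matched genes, 0 held AGGCCT and 4 held GGCCT, beside 13.0% and 60.2% of all genes. The shorter motif is the more frequent one at large. Genes denser than their chromosome numbered 6 in 1 and 2 Mb and 5 in 200 kb, with the peaks in the windows included. In 1 Mb, HHIP was among them with 2 peaks against 1.94 per Mb. The share of regions at large that are denser than their chromosome was not computed, so these counts have no background. No paired analysis was possible because peaks were analysed in 1 library, and no replicate could be left out. Depth is unknown, so missed weak sites cannot be counted.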
